A study of Mus musculus with 3 samples.

Results

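Slc1a3, Slc1a2, Glul, Slc6a11, Gabrb1, Gabrg1 and Slc4a4 were followed as a set of 7 genes of glutamate, GABA and bicarbonate handling in astroglia. The genes were chosen by name, and all 7 of them were found among the 16178 genes of the filtered single-cell table. Slc1a3 encodes GLAST, the surface antigen by which the cells had been enriched, so its transcript was set against those of the other 6 genes in every cluster.

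Neurons release glutamate and GABA, and astroglia clear both from the space around synapses. Slc1a3 (GLAST) and Slc1a2 (GLT-1) encode the sodium-driven glutamate transporters of these cells, and Glul encodes glutamine synthetase, which turns the glutamate taken up into glutamine for return to neurons. Slc6a11 encodes the GABA transporter GAT-3, Gabrb1 and Gabrg1 encode the beta 1 and gamma 1 subunits of GABA-A receptors, chloride channels that GABA opens, and Slc4a4 encodes the sodium bicarbonate cotransporter NBCe1, which sets the acidity in and around the cell. Adult neural stem cells of the subventricular zone are themselves astroglia and carry many of the same genes.

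Single cells from the subventricular zone, the stem cell niche along the lateral ventricles, were sequenced by SORT-seq, a plate method in which every well has a barcode and every transcript a molecular identifier. The mice were male C57BL/6J animals from Envigo, 8 per experiment in 3 experiments, with no other allele or agent in the labels and no age given there. All 3 samples form 1 group, each sample is read here as 1 plate of cells pooled from the mice of 1 experiment, and all were selected with an anti-GLAST antibody on a magnetic column; myelin had been depleted in 2 experiments, which the labels do not name. The question named by the series title is whether autofluorescence, the light a cell gives off unstained, reports on how active a neural stem cell is.

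The filtered table keeps 43, 45 and 61 cells of plates 1, 2 and 3, with totals of 297573, 413728 and 478504 estimated transcripts and from 1208 to 37442 in a cell. The labels call the cells neural stem cells, but the authors' 5 numbered clusters hold other cells as well. Cluster 3 (30 cells) was highest for 8 of 10 markers that astrocytes and quiescent stem cells share, and is called astroglia-like here because these markers do not separate astrocytes from such stem cells. Their summed level was 24421 and 25360 CPM (estimated transcripts scaled to a total of 1000000) on plates 1 and 3, and at most 1720 in any sum of 3 or more cells of another cluster. Clusters 0 and 2 (42 and 35 cells) were highest for the 8 oligodendrocyte-lineage markers, cluster 1 (36 cells) for 8 of 8 microglial markers and cluster 4 (6 cells) for 7 of 7 markers of activated stem cells or progenitors. Plate 1 holds 25 of the 30 cells of cluster 3, plate 2 holds 1 and plate 3 holds 4, so levels there rest mostly on 1 plate. None of the 5 neuroblast and none of the 5 neuronal markers found had a transcript in cluster 3.

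The clusters were drawn by the authors from these same expression values. Levels by cluster are therefore given as a description, without a test. Molecules were counted by identifiers, which calls for no correction for gene length when levels of different genes are compared.

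Slc1a3 was highest in the astroglia-like cells of cluster 3 on every plate. It stood at 5578 CPM on plate 1, 7407 in the single cell of plate 2 and 5898 on plate 3, which gives 5738 ± 227 CPM (SD, n = 2 plates with at least 3 cells). In the microglia-like cluster 1 it stood at 337, 272 and 377 CPM on the 3 plates. Every plate's sum in cluster 3 thus lay above every sum elsewhere, the next being 511 CPM in the 5 progenitor-like cells of cluster 4 on plate 1, where the mean of cluster 3 was 11.2 times as high. The order of the clusters was 3, 4, 1, 0 and 2, and clusters 0 (132.9 ± 39.9 CPM, SD, n = 2) and 2 (91.7 ± 68.1 CPM, SD, n = 3) overlapped.

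Slc1a2, the other glutamate transporter, was the most abundant of the 7 genes in cluster 3. It reached 9370, 9143 and 10906 CPM there on plates 1, 2 and 3, with a mean of 10138 ± 1086 (SD, n = 2). Cluster 1 came next with 438, 435 and 755 CPM, and the mean of cluster 3 was 18.7 times its mean. Below cluster 3 each cluster overlapped with the next in order: cluster 1 overlapped with cluster 4 (533 CPM on plate 1), cluster 4 with cluster 2 (88.1 to 534 CPM), and cluster 2 with cluster 0 (162 and 237 CPM).

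Glul was spread over all cell classes. In cluster 3 it stood at 2915, 1723 and 2740 CPM on the 3 plates (2827 ± 123, SD, n = 2), and in the oligodendrocyte-lineage-like cluster 0 at 1359 in the single cell of plate 1, 1365 and 1616 CPM. The single cell of cluster 3 on plate 2 was close to the sums of cluster 0. The mean of cluster 3 was 1.90 times that of cluster 0, the smallest lead among the 7 genes. Clusters 0 and 1 (1136 ± 219 CPM, SD, n = 3) overlapped, and clusters 2 (760 ± 199 CPM, SD, n = 3) and 4 (544 CPM on plate 1) followed. Because cluster 0 has more cells with more transcripts each, it held 42.0% of all Glul transcripts, against 28.2% in cluster 3.

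Windows around the annotated transcription starts of these 3 genes are shown because Glul transcripts were spread over the clusters and those of Slc1a3 and Slc1a2 were mostly in cluster 3. Each runs from 250 bases before to 50 bases after a start, 5′ to 3′ on the gene's strand, from RefSeq on GRCm38.p6, the assembly of mm10. Capitals mark matches on either strand to any of 4 motifs searched: TTGGC, the half-site of nuclear factor I, the SOX-type words ACAAAG and ACAATG, and the TATA word TATAAA. The windows are Slc1a3 at chr15:8710758-8711057 (minus strand), Slc1a2 at chr2:102706188-102706487 (plus strand) and Glul at chr1:153899679-153899978 (plus strand).
Slc1a3: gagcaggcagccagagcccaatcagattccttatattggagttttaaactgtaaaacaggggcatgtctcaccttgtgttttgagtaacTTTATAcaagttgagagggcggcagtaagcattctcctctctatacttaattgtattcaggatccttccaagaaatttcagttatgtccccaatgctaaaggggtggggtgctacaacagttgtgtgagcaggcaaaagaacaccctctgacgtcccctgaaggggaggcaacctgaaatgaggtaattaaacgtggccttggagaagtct
Slc1a2: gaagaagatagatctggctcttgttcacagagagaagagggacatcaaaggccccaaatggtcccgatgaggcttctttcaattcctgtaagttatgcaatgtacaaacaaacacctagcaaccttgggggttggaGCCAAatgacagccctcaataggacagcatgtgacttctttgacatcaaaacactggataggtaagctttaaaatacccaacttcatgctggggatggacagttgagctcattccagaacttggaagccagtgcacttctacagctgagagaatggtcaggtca
Glul: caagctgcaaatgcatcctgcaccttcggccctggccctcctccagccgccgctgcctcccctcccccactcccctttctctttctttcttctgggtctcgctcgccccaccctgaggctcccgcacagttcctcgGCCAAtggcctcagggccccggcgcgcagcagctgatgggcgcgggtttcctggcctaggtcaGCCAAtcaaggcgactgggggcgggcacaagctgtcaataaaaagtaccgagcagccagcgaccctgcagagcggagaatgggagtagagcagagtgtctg
The Slc1a3 window has 1 TATA word, 161 bases before the start, Slc1a2 has 1 nuclear factor I half-site at -114, and Glul has 2, at -114 and -51. The half-site occurs in 6 of the 9 windows listed for the 7 genes and in 46.7% of all 32851 windows of this length, ACAATG in 1 and 12.6%, TATAAA in 1 and 13.6%, and ACAAAG in 0 and 18.7%. The matches describe these letters only. The transcripts were counted without showing which start was used, and the Slc1a2 window lies inside the annotated gene rather than at its outermost start. The gene itself spans bases 102658239 to 102790784 of chromosome 2, Slc1a3 spans 8634124 to 8710807 of chromosome 15 and Glul 153899929 to 153909723 of chromosome 1.

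Slc6a11, the GABA transporter, was found mostly in cluster 3. It stood there at 405, 738 and 269 CPM on the 3 plates (337 ± 96.4, SD, n = 2), from 62 identifiers in all. The other 4 clusters together had 6 identifiers of it, and 0 in the 6 cells of cluster 4, where a count of 0 allows up to 32.6 CPM on plate 1. The gene lies on chromosome 6, at 114131241 to 114249886.

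The receptor subunit genes Gabrb1 and Gabrg1 both lie on chromosome 5, at 71657921 to 72149572 and 70751047 to 70842617. Gabrb1 stood in cluster 3 at 497, 1477 and 628 CPM (563 ± 92.4, SD, n = 2), and Gabrg1 at 406, 0 and 314 CPM (360 ± 64.9, SD, n = 2). The 0 of Gabrg1 belongs to the single cell of plate 2, in which 3 identifiers would be 738 CPM, so a usual level could not be seen. Outside cluster 3 there were 6 identifiers of Gabrb1 and 3 of Gabrg1, against 85 and 60 within it.

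Slc4a4, the bicarbonate cotransporter on chromosome 5 (88793858 to 89239656), stood in cluster 3 at 995, 1231 and 1167 CPM, with a mean of 1081 ± 122 (SD, n = 2). Its next cluster was the microglia-like cluster 1, at 0, 54.3 and 209.7 CPM, from 9 identifiers, and the mean of cluster 3 was 12.3 times as high. The sums of cluster 1 overlapped with those of clusters 0, 2 and 4, where no sum passed 21.2 CPM.

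**Figure D1:**
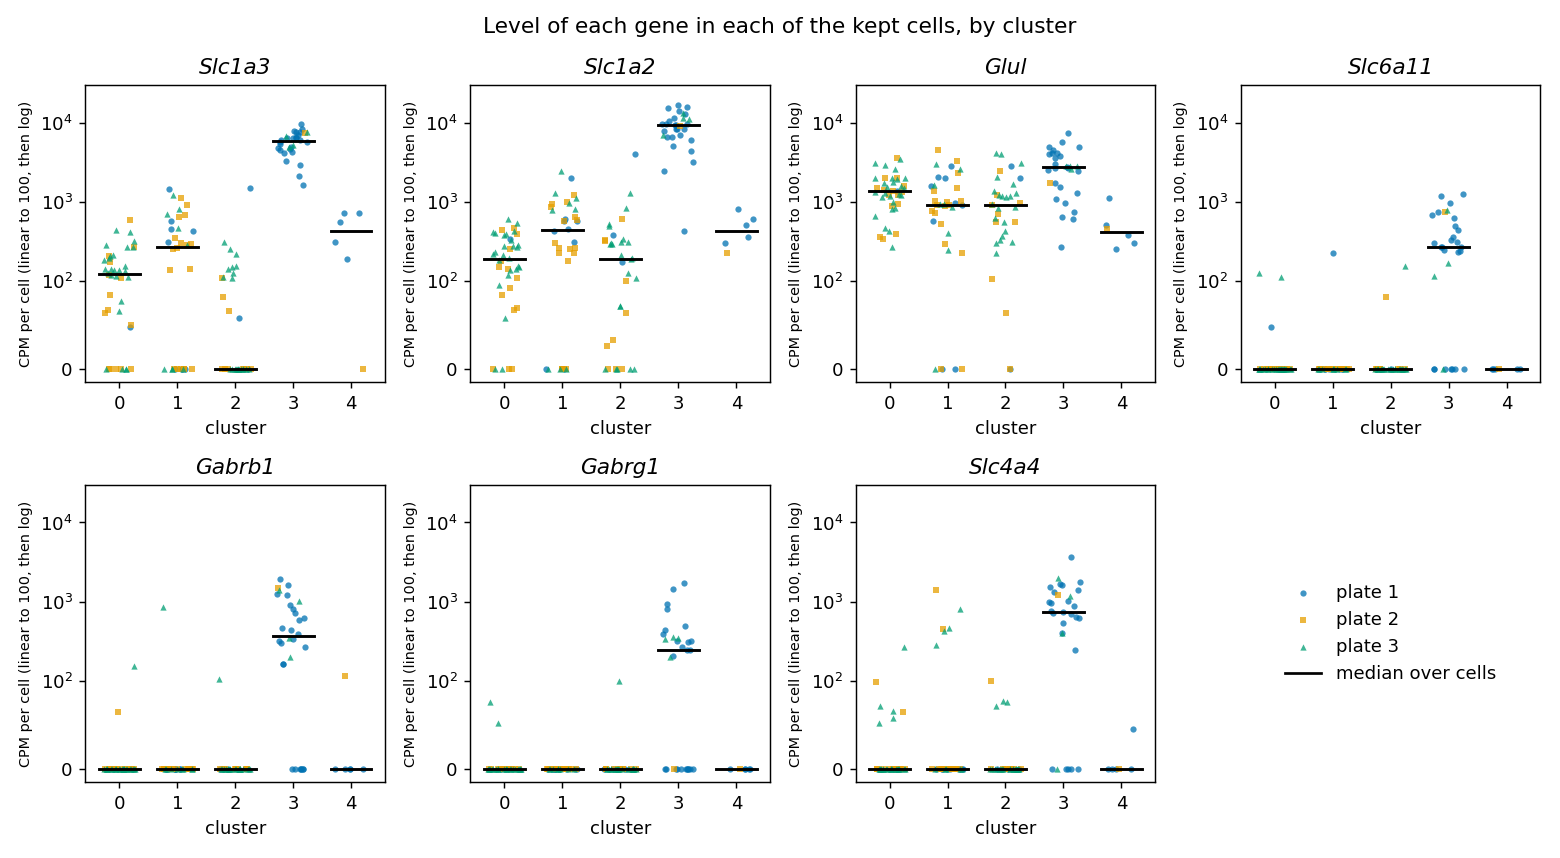
Level of each gene in each of the 149 kept cells by cluster, in CPM on an axis that is linear to 100 and logarithmic above; colours and shapes give the plate and the bar is the median over cells. Slc1a3 and Slc1a2 in cluster 3 lie above most other cells, with medians of 5924 and 9283 CPM, while Glul overlaps across clusters, with medians from 422 to 2734 CPM.

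As shares of what was counted in the kept cells, cluster 3 held 84.1% of the Slc1a3 transcripts, 84.4% of Slc1a2, 91.2% of Slc6a11, 93.4% of Gabrb1, 95.2% of Gabrg1 and 88.0% of Slc4a4. Of the transcripts of all genes it held 13.2%. All 7 genes had their highest mean in cluster 3, where 19.3% of the 5329 genes compared did too. In 6 of the 7, all but Glul, that mean was at least 4 times the mean of every other cluster, which held for 4.71% of those genes. The 7 genes had been chosen with such results known, and several rest on few identifiers outside cluster 3. A gene was compared if it had enough counts in a single sum. Slc6a11, Gabrb1 and Gabrg1 had at most 33.7, 83.9 and 8.48 CPM in any sum of 3 or more cells outside cluster 3. They were compared through cluster 3 alone, so their place there was close to fixed in advance.

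The 7 genes were found together in single cells of cluster 3. At least 5 of them were detected in 27 of its 30 cells and all 7 in 10 cells. In cluster 0 at least 5 were detected in 2 of 42 cells, and in clusters 1, 2 and 4 in 0 cells. Detection moves with depth, and these counts were not thinned. The cells of cluster 3 had a median of 4184.5 identifiers. Clusters 0, 2 and 4 were deeper, at 9472, 8503 and 17292.5, and cluster 1 was shallower, at 3448.

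Slc1a3 had at least 1 identifier in 30 of 30 cells of cluster 3 (exact 95% binomial interval 88.4 to 100%), 5 of 6 in cluster 4, 33 of 42 in cluster 0 (63.2 to 89.7%), 22 of 36 in cluster 1 (43.5 to 76.9%) and 14 of 35 in cluster 2 (23.9 to 57.9%). The intervals cover counting error only. The highest count in a cell was 16 in cluster 4, 6 in cluster 0, 5 in cluster 1 and 3 in cluster 2, against 74 in cluster 3. With every cell thinned to 1000 identifiers, 98.8% of the cells of cluster 3 had Slc1a3, against 32.4% in cluster 4, 27.8% in cluster 1, 13.6% in cluster 0 and 7.79% in cluster 2. No cell fell below 1000 identifiers, so none was left out. Slc6a11, Gabrb1, Gabrg1 and Slc4a4 were detected, without thinning, in 73.3%, 76.7%, 60.0% and 80.0% of the cells of cluster 3. Slc4a4 reached at most 16.7% of the cells of any other cluster.

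Low levels outside cluster 3 were seen for Slc1a3, the gene of the selection antigen, and for other astroglial genes. In percent of the pooled level in cluster 3, Slc1a3 stood at 2.33 in cluster 0, 5.41 in cluster 1, 1.19 in cluster 2 and 8.23 in cluster 4. Slc1a2 stood at 2.19, 5.17, 2.05 and 5.29 in the same clusters, and Aldoc, an astrocytic glycolytic enzyme, at 3.30, 4.81, 3.37 and 3.77. Of the other markers in the list of 10, Clu, Sparcl1, Gja1, Fgfr3 and Aqp4 lay between 0.367 and 7.83%, Aldh1l1 reached 12.99% in cluster 4 and Id3 14.0% in cluster 1. Gfap, from 4 identifiers in cluster 3, reached 44.0% in cluster 2. S100b was higher in cluster 0 than in cluster 3, at 275%. Of the 7 genes, Glul had the highest percents, at 52.4, 39.1, 27.5 and 18.8%. Markers of other cell types were also present at low levels within cluster 3, where the 8 microglial markers summed to 700.1 CPM and the 8 oligodendrocyte-lineage markers to 738 CPM, against 35844 CPM in cluster 1 and 77781 in cluster 0. What part of the low counts is free RNA, doublets or expression was not tested.

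**Figure D2:**
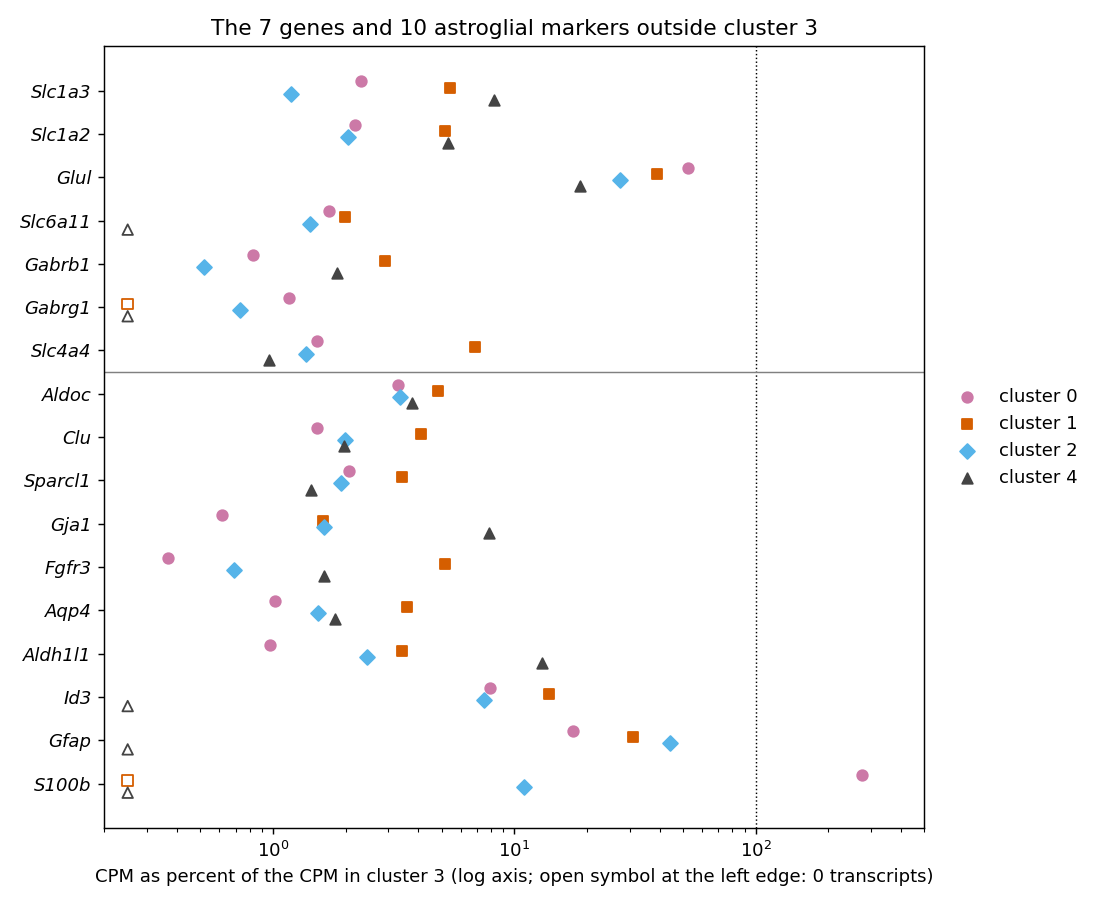
Pooled CPM of each gene in clusters 0, 1, 2 and 4 as a percent of its pooled CPM in cluster 3, on a log axis, for the 7 genes and, under the line, the 10 astroglial markers; open symbols at the left edge are 0. Glul stands at 18.8 to 52.4%, to the right of the other 6 genes, and Slc1a3 at 1.19 to 8.23%; among the markers Gfap and S100b reach 44.0 and 275%.

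A share of Slc1a3 among the identifiers of the 7 genes sets it directly against the others. In cluster 3 it was 887 of 3195 identifiers, or 27.8% (exact 95% interval 26.2 to 29.4%). It was 15.2% in cluster 1 (39 of 256, 11.1 to 20.2%), 7.07% in cluster 0 (59 of 835, 5.42 to 9.02%) and 6.27% in cluster 2 (24 of 383, 4.06 to 9.18%). The lower shares in clusters 0, 1 and 2 lie outside the interval of cluster 3, though the intervals cover counting error only. Glul supplied 80.0%, 55.5% and 73.1% of the identifiers in clusters 0, 1 and 2. In cluster 4 Slc1a3 supplied 30.5% (47 of 154, 23.4 to 38.4%), all of it from plate 1.

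Set against Slc1a2 alone, a comparison chosen after the values were seen, the share of Slc1a3 in clusters 0 and 1 was close to that in cluster 3. It was 37.3% in cluster 3 (887 of 2379, 35.3 to 39.3%), 38.6% in cluster 0 (59 of 153, 30.8 to 46.8%) and 38.2% in cluster 1 (39 of 102, 28.8 to 48.4%). It was 25.5% in cluster 2 (24 of 94, 17.1 to 35.6%) and 48.0% in cluster 4 (47 of 98, 37.8 to 58.3%). The interval of every cluster overlapped with that of cluster 3, those of clusters 2 and 4 only at their ends. The pooled intervals of clusters 2 and 4 did not overlap with each other. These intervals cover counting error only, not the spread among cells or plates. On plate 1, which gave all Slc1a3 of cluster 4, the 2 clusters did overlap, at 23.5% (6.81 to 49.9%) and 49.0% (38.6 to 59.4%).

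**Figure D3:**
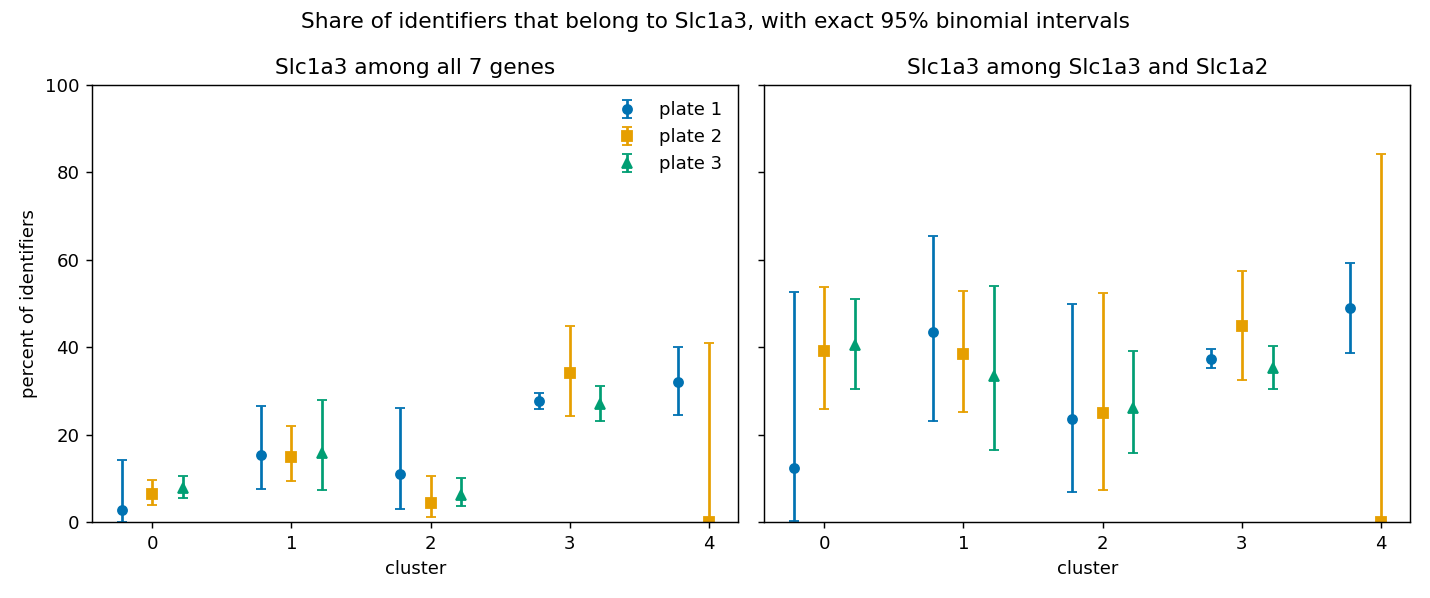
Percent of identifiers that belong to Slc1a3 in each cluster and plate, among all 7 genes (left) and among Slc1a3 and Slc1a2 (right), with exact 95% binomial intervals for counting error. On the left cluster 3, and cluster 4 on plate 1, stand above clusters 0 and 2, while cluster 4 on plate 2 is at 0 of 7 identifiers. On the right the intervals of clusters 0, 1 and 3 overlap, around 37.3 to 38.6% over the plates together.

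The wells that the authors left out of the filtered table held Slc1a3 too. These 86 wells had a median of 265.5 identifiers, and Slc1a3 was detected in 21 of them. Its level in their sums was 2285, 911 and 1144 CPM on plates 1, 2 and 3, against 2660, 179 and 407 CPM in the kept cells. Slc1a2 stood at 3999, 993 and 2821 CPM in these wells, against 4394, 276 and 757 in kept cells. On plates 2 and 3 both transporters were thus higher in the wells left out, and on plate 1 lower, from 8 to 37 identifiers per value. Among the 7 genes Slc1a3 made up 21.8% of the identifiers of these wells (34 of 156, 15.6 to 29.1%), and these wells belong to no cluster.

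Within cluster 3 the 7 genes varied to different degrees from cell to cell. Among its 25 cells on plate 1, Slc1a3 ran from 1618 through a median of 5753 to 9748 CPM, with a coefficient of variation of 34.6% where counting alone would give 20.7%. Slc1a2 ran from 430.2 through 8443 to 16621 CPM, with 46.8% against 16.0% from counting. The lowest of these cells, at 430.2 CPM of Slc1a2, still had 2152 CPM of Slc1a3. Glul ran from 267 through 2722 to 7352 CPM, with 62.8% against 28.6% from counting. For Slc6a11, Gabrb1 and Gabrg1 the coefficients were 99.2%, 106% and 141%, where counting alone would give 76.5%, 69.1% and 76.5%. Slc4a4 ran from 0 through 738 to 3620 CPM, with 89.9% against 48.8% from counting. Over these 25 cells of 1 plate, Slc1a3 and Slc1a2 had a Spearman rho of 0.10, given as a description of cells that share a library.

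Across the 11 sums of 3 or more cells of a plate and cluster, Slc1a2 followed Slc1a3 most closely, with a Pearson correlation of 0.98 on the scale of log2 (CPM + 10). The correlation with Slc1a3 was 0.86 for Gabrg1, 0.86 for Gabrb1, 0.83 for Slc4a4, 0.82 for Slc6a11 and 0.73 for Glul. Outside the set, the genes most like Slc1a3 were Cpe, a carboxypeptidase of peptide processing (0.98), the orphan receptor gene Gpr37l1 (0.97), Gpm6a (0.97), the sodium pump subunit gene Atp1b2 (0.94) and the transcription factor gene Sox9 (0.94). Most like the mean profile of all 7 were Sparcl1 (0.99), Gpm6a (0.98), Nkain4 (0.98), Lxn (0.97) and Prex2 (0.97). Only 2 of the 11 sums are of cluster 3, and the sums share plates, so these correlations largely restate which genes are high there.

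Other genes of the same pathways were taken from lists made by name. Of 13 glutamate genes with enough counts, 7 were highest in cluster 3, 4 in clusters 0 or 2 and 2 in cluster 1. Of all 5329 genes compared, 19.3% were highest in cluster 3. Enough counts in a single sum let a gene pass, so genes high only in cluster 3 were kept through that cluster. Glud1, glutamate dehydrogenase, stood at 955 ± 208 CPM in cluster 3 (SD, n = 2), Grm3, a metabotropic glutamate receptor, at 593 ± 113, and Slc38a3, a glutamine transporter of astrocytes, at 502 ± 50.6. Slc38a2, another glutamine transporter, went the other way, with 56.8 ± 17.0 CPM in cluster 3 and 671 ± 73.3 in cluster 0 (SD, n = 2 each).

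Of the 23 listed GABA genes only 5 had enough counts, and all 5 were highest in cluster 3, against 19.3% of all genes compared. That count was in part fixed in advance by the filter. Abat had at most 50.9 CPM in any sum of 3 or more cells elsewhere, and Maob, another of the 5, at most 43.4. Both thus passed through cluster 3 alone. The GABA-B receptor gene Gabbr1 stood there at 472 ± 93.9 CPM (SD, n = 2), and Slc6a11 at 337 ± 96.4. Pooled over the cells of cluster 3 the 2 genes were close, at 427 and 395 CPM from 67 and 62 identifiers. The GABA transaminase gene Abat stood at 315 ± 251 CPM and Aldh9a1, an aldehyde dehydrogenase, at 226 ± 60.4. Of 12 bicarbonate and ion genes, 4 were highest in cluster 3, 6 in clusters 0 or 2 and 2 in cluster 1. Those in cluster 3 included Atp1b2, a subunit of the astrocytic sodium pump, at 6002 ± 2112 CPM. Car2, a carbonic anhydrase of oligodendrocytes, stood at 4837 ± 66.6 CPM in cluster 0 against 345 ± 107 in cluster 3, and the chloride cotransporter gene Slc12a2 at 1356 ± 252 in cluster 2 (SD, n = 3) against 79.2 ± 14.7. Genes of the glutamate list and of the bicarbonate and ion list were thus highest in several clusters.

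Autofluorescence was measured on the same cells; the genes were chosen by name, but with earlier results of these data known. Cells were called high where they lay above the median of their plate and low otherwise, and the transcripts of each side were summed per plate. In such sums, more cells of a kind and more RNA in each cell cannot be told apart. The p-values below come from edgeR's quasi-likelihood test with a block for plate and p-values adjusted by Benjamini-Hochberg over all genes tested, and they measure the spread among plate sums once plate and side are taken into account.

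Over all cells, Slc1a3, Slc1a2 and Slc4a4 were higher in the high cells. Slc1a3 stood at 3813, 258 and 561 CPM in the high cells of plates 1, 2 and 3, and at 1827, 106.5 and 240.2 CPM in the low cells. The high side exceeded the low side on all 3 plates, while the plates differed so much that the 2 groups of sums overlapped. The lone cluster 3 cell of plate 2 was among its high cells and held 30 identifiers of Slc1a3. Clusters 0, 1, 2 and 4 of that plate had 20, 20, 4 and 0 on both sides together. The difference on plate 2 thus rests largely on 1 cell. The log2 change was 1.20 (SE 0.31, n = 3 plates, adjusted p = 0.0258 by edgeR).

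Slc1a2 stood at 6404, 384.5 and 1099 CPM in high cells and at 2941, 176 and 384.3 CPM in low cells. It was higher on 3 of 3 plates, with a log2 change of 1.28 (SE 0.30, adjusted p = 0.0109 by edgeR). On plate 2 the lone cluster 3 cell, among the high cells, held 37 identifiers of Slc1a2, against 31, 32, 12 and 2 in clusters 0, 1, 2 and 4. Slc4a4 stood at 735 CPM in high and 226 in low cells of plate 1, 30.4 and 27.8 on plate 2, and 152 and 8.73 on plate 3. It too was higher on 3 of 3 plates, though on plate 2 by little, with a log2 change of 1.94 (SE 0.50, adjusted p = 0.0258 by edgeR). Of the Slc4a4 identifiers of plate 2, the lone cluster 3 cell held 5, and clusters 0, 1, 2 and 4 had 2, 4, 1 and 0. The small difference on plate 2 thus rests on 1 cell.

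The other 4 genes did not pass in this comparison. Gabrb1 had a log2 difference of 1.40 (SE 0.47, adjusted p = 0.134 by edgeR), from 61 transcripts in high and 30 in low cells. Glul stood at 2262, 926 and 1496 CPM in high and 1369, 1116 and 1214 CPM in low cells, and was lower in the high cells of plate 2. Its log2 difference was 0.28 (SE 0.31, adjusted p = 0.846 by edgeR). Slc6a11 and Gabrg1 had too few counts to be tested: on plate 1 they stood at 248 and 312 CPM in high cells and at 139 and 81.2 CPM in low cells. Thus 3 of the 5 genes tested were called higher, where 3.89% of the 3723 genes tested were called higher and 4.03% were called in either direction.

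The cells summed on each side were of different kinds. Cluster 3 gave 63.9% of the transcripts of the high cells of plate 1 and 29.5% of those of the low cells, 2.06% and 0% on plate 2, and 7.81% and 1.23% on plate 3. Cluster 4 gave 53.4% of the low transcripts of plate 1 and had no cell among the high cells of any plate. The 10 astroglial markers, all found, summed to between 1093 and 17748 CPM in high cells and between 468 and 6382 in low cells. The 8 microglial markers summed to between 3588 and 11949 CPM in high cells and between 223 and 1857 in low cells.

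The 3 calls changed with the cells and plates used. Without the cells of cluster 3, an alternative chosen after seeing the data, Slc1a3 had a log2 difference of -0.41 (adjusted p = 0.981 by edgeR) and Slc1a2 of -0.11 (adjusted p = 0.991), and Slc4a4 was not tested. None of the 3 genes passed without the cells of cluster 4, where the log2 differences were 0.60, 0.70 and 1.05 for Slc1a3, Slc1a2 and Slc4a4 (adjusted p = 0.506, 0.395 and 0.276 by edgeR). None passed without plate 2, without plate 3 or without plate as a block. Without plate 1, Slc1a3 and Slc1a2 were still called and Slc4a4 was not tested. Cluster 3 then had 1 high and 0 low cells on plate 2, and 3 high and 1 low on plate 3.

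**Figure D4:**
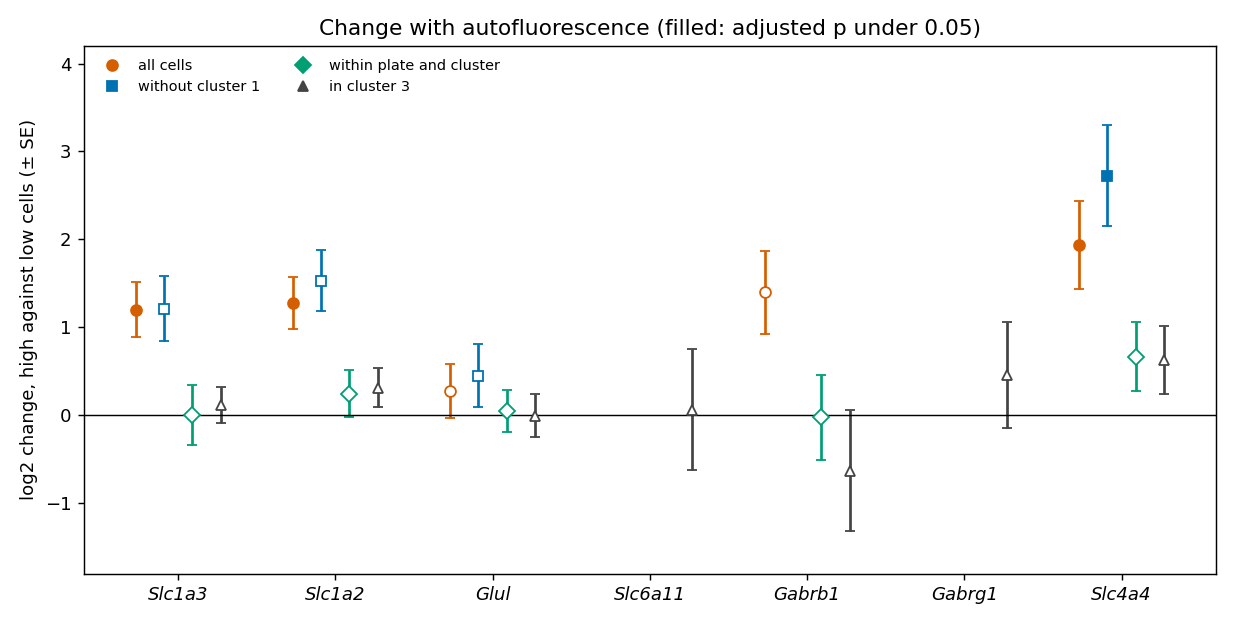
Log2 change of each gene between cells of high and low autofluorescence, with SE, in 4 comparisons; filled symbols have an adjusted p under 0.05 and genes with too few counts to be tested have no symbol. Slc1a3, Slc1a2 and Slc4a4 stand at 1.20, 1.28 and 1.94 over all cells and at 0.00, 0.25 and 0.67 when cells are split within plate and cluster.

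With the microglia-like cluster 1 left out and the median taken anew, Slc4a4 was again higher in high cells. It stood at 909 CPM in high and 196 in low cells of plate 1, 29.8 and 14.4 on plate 2, and 123 and 0 on plate 3, where a count of 0 was seen in the low cells. The high side exceeded the low side on 3 of 3 plates, with a log2 change of 2.73 (SE 0.57, adjusted p = 0.0389 by edgeR), in a comparison where 0.343% of 2913 genes were called higher and 0.378% in either direction. It did not pass with the size factors of DESeq2 in place of TMM (adjusted p = 0.0517 by edgeR), without plate 2 (adjusted p = 0.106), without plate 3 (adjusted p = 0.500), without plate as a block, or without the cells of cluster 4 (log2 difference 1.78, adjusted p = 0.137). Cluster 3 gave 84.5% of the high and 24.0% of the low transcripts of plate 1 here. The lone cluster 3 cell of plate 2 fell among the high cells and held 5 identifiers of Slc4a4. Clusters 0, 2 and 4 of that plate had 2, 1 and 0, so its difference rests mostly on 1 cell. Of plate 3, cluster 3 gave 6.84% of the high transcripts from 3 cells and 1.66% of the low ones from 1 cell.

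The remaining genes did not pass in that comparison. Slc1a2 had a log2 difference of 1.53 (SE 0.35, adjusted p = 0.0615 by edgeR), and it was called without plate 1 (log2 change 1.15), with no filter (1.59) and by DESeq2 (1.54). Slc1a3 had 1.21 (SE 0.37, adjusted p = 0.282) and Glul 0.45 (SE 0.36, adjusted p = 0.895). Gabrb1, Slc6a11 and Gabrg1 were not tested for low counts.

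Cells were then split at the median of their own plate and cluster, so that each cluster gave to both sides unless it had a lone cell on a plate. None of the 5 genes tested passed. In this comparison 0.0879% of 3412 genes were called, 3 genes in all, against 241 at an unadjusted p under 0.05 and 0 by DESeq2. Slc1a3 stood at 3348, 67.7 and 397 CPM in high cells and at 2334, 162 and 418 in low cells, higher on 1 of 3 plates, with a log2 difference of 0.00 (SE 0.34). Slc1a2 had 0.25 (SE 0.27), Glul 0.05 (SE 0.24), Gabrb1 -0.02 (SE 0.48) and Slc4a4 0.67 (SE 0.39, adjusted p = 0.772 by edgeR). These errors allow a wide range of sizes, most of all for Gabrb1 and Slc4a4. The balance was not complete: cluster 3 gave 55.9% of the high and 38.0% of the low transcripts of plate 1. On plate 2 it gave 0% to either side, because its lone cell there was left out. The values of plate 2 therefore come from the other clusters.

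Within cluster 3 alone, the cells with most transcripts of these genes, 2 plates could be split, 12 against 13 cells on plate 1 and 2 against 2 on plate 3. Slc4a4 stood at 1151 and 1400.2 CPM in high cells and at 748 and 802 CPM in low cells. Slc1a2 stood at 9830 and 12528 CPM in high and 8663 and 8364 in low cells, and Slc1a3 at 5828 and 6116 against 5198 and 5500 CPM. In these 3 genes the high sums lay above both low sums, as they did for 16.7% of the 437 genes tested. The log2 differences were 0.63 (SE 0.38), 0.32 (SE 0.23) and 0.11 (SE 0.21), with 1 residual degree of freedom.

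No gene passed in that comparison: 0 of 437 by edgeR, with 7 at an unadjusted p under 0.05, and 0 by DESeq2, with 1. Gabrb1 had a log2 difference of -0.63 (SE 0.69), Gabrg1 0.46 (SE 0.60), Slc6a11 0.07 (SE 0.69) and Glul 0.00 (SE 0.25), all with overlapping sums. Over the 25 cells of cluster 3 on plate 1, the rank correlation with autofluorescence was 0.45 for Slc4a4, 0.42 for Gabrb1, 0.28 for Glul, 0.19 for Gabrg1, 0.15 for Slc1a3, 0.14 for Slc6a11 and 0.10 for Slc1a2. The total of transcripts in a cell had 0.42 with autofluorescence, and 0.41 with the level of Slc4a4. The part of depth in these values was not tested.

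**Figure D5:**
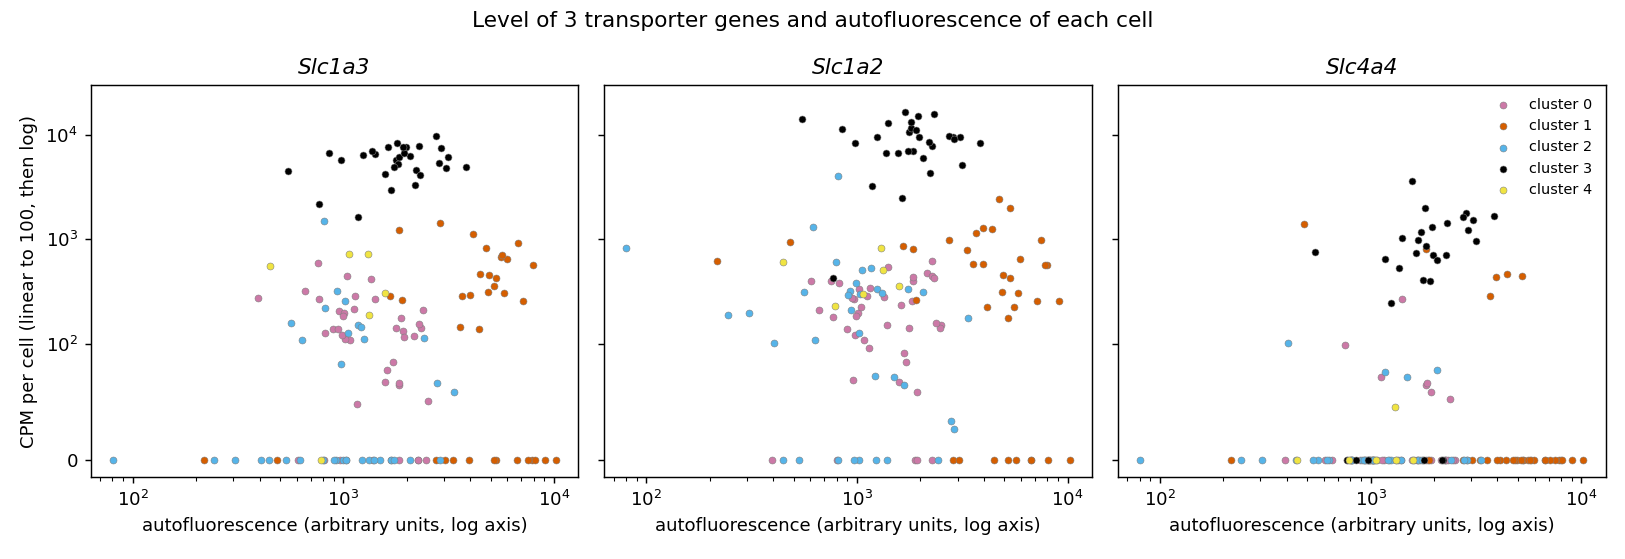
CPM of Slc1a3, Slc1a2 and Slc4a4 in each of the 149 cells against the cell's autofluorescence in arbitrary units on a log axis, coloured by cluster; the level axis is linear to 100 and logarithmic above. The cells of cluster 3, with a median autofluorescence of 1826, form a band above the other cells for Slc1a3. For Slc1a2 most of them do, but they reach down to 430 CPM, and a cell of cluster 2 reaches 4018 CPM. Most cells of cluster 1, with a median of 4896, lie to the right at low levels, though a cell of it lies at 218.

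Among the other pathway genes, 3 of 9 bicarbonate and ion genes tested were higher in the high cells over all clusters, and none of 7 glutamate and 4 GABA genes passed, where 3.89% of all 3723 genes tested were called higher. At that share, 0 of 7 or 0 of 4 does not set a list apart. Those higher included the sodium pump gene Atp1b2, with a log2 change of 1.32 (SE 0.30, adjusted p = 0.0109 by edgeR), and the water channel gene Aqp4, with 2.30 (SE 0.46, adjusted p = 0.00286), each higher on 3 of 3 plates. Like Slc1a3 and Slc1a2, Atp1b2 and Aqp4 were highest in cluster 3. Without cluster 1, Aqp4 (2.63, adjusted p = 0.0317) passed and Atp1b2 did not (1.58, adjusted p = 0.105). Over all cells, Atp1b2 and Aqp4 missed the threshold without plate 2 (adjusted p = 0.153 and 0.0992 by edgeR) and without plate 3 (0.227 and 0.117), and Atp1b2 without the cells of cluster 4 (0.293). Without the cells of cluster 3 the log2 difference of Atp1b2 was 0.04. Without cluster 1, Aqp4 also missed it without plate 2 (0.106), without plate 3 (0.500) and without the cells of cluster 4 (0.0559), and it was not tested without plate 1. Neither gene passed without plate as a block in either comparison. Within plate and cluster and within cluster 3, none of the tested genes of the 3 lists passed. The median log2 difference over all genes tested was -0.04 over all cells, against -0.02 for the glutamate list, 0.44 for the GABA list and -0.02 for the bicarbonate and ion list.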

How the data were processed

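The authors deposited estimated counts of transcripts per gene and cell, made from molecular identifiers with a correction for collisions; inverting it returned whole identifiers for 100% of 349688 values above 0 (tolerance 1e-06). Builds mm10 and hg19 and the tools Seurat 4.1.1, BWA 0.7.15 and R 4.2.0 appear in the submitters' processing notes, with no role stated. Neither the gene annotation nor the rule that removed 86 of 235 wells is given there. Cluster numbers are the authors', and autofluorescence is a deposited intensity per cell in arbitrary linear units. Cells were assigned to plates by matching the final digit of the library name to the number in the sample title. In the table per cell, 15 columns were not used. No doublet caller was run.

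CPM are estimated transcripts scaled to a total of 1000000. Means, SDs and correlations over plates and clusters use sums of at least 3 cells. Levels given for a plate, and pooled levels, also include smaller sums. High and low autofluorescence sums were rounded to whole numbers and tested with edgeR 4.0.16 in R 4.3.3 (TMM, filterByExpr by side, plate as a block, quasi-likelihood F test, Benjamini-Hochberg at 0.05); SE is the log2 change divided by the root of F. The plate number is shared by the high and low cells of 1 sample, which is where the pairing comes from. Splitting within plate and cluster left out lone cells. The fit was tested on simulated data, except for the comparison within cluster 3. The simulated counts had the same mean profile on all plates. They thus held no differences between plates or in the kinds of cells summed. Alternatives included DESeq2 1.42.0. Depth was from 297573 to 478504 estimated transcripts per plate. RefSeq names matched all 7 genes.

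All 7 genes are named; of each pathway list, the 4 genes with the highest mean level and those called in a fit, some of which are not reported here; of genes most alike, the 5 with the highest correlation with Slc1a3 and with the mean profile. Maob is named besides, for how it passed the filter. The genes, lists and tests were chosen with earlier results of these data known.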

Additional observations from a re-analysis of the deposited data

How the results depend on the processing

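Counts of called genes depended on plates and filters. Over all cells 150 genes were called, against 307 with no filter on low counts, 0 with no replicate block for plate (207 at an unadjusted p under 0.05) and from 39 to 180 on leaving out 1 plate. Without cluster 1 the 11 called genes became 7 with the size factors of DESeq2, 74 with no filter, 0 with no replicate block (67 unadjusted), 0 to 7 on leaving out 1 plate, 0 for the brightest against the dimmest cells (upper and lower tertile), 0 without the cells of cluster 3 and 3 without those of cluster 4. Within plate and cluster the 3 calls became 20 with the size factors of DESeq2, 0 by DESeq2 itself (74 unadjusted), 0 with no replicate block (40 unadjusted), 0 to 23 on leaving out 1 plate, 0 without cluster 1 and 1 without cluster 3. Over all cells, the sign of Slc1a3 (-0.41) and of Slc1a2 (-0.11) turned without the cells of cluster 3, an alternative chosen after seeing the data. By construction it takes out the cells with most of their transcripts; for the other changes the cause was not tested. Slc1a3 and Slc1a2 also missed the threshold for the upper against the lower tertile (log2 differences 1.17 and 1.32), where Slc4a4 was not tested. Cluster 3 rests on 25 cells of plate 1 and 5 of the others, and plates 2 and 3 alone give little depth for Slc6a11, Gabrb1 and Gabrg1.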
